A study of Mus musculus and blank sample with 191 samples.

Results

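The genes examined here are 9 of the 19962 targets of a mouse whole-transcriptome probe panel: the thyroid hormone receptors Thra and Thrb, their dimer partners Rxra, Rxrb and Rxrg, the corepressor Ncor1 with its histone deacetylase Hdac3, and the coactivators Ncoa1 and Med1. They were taken by name for their place in the pathway, with earlier results of these data known. All 9 were among the 14881 targets of the authors' filtered table, over which the tests were run.

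Spatial profiles of the uterus were collected from mutant mice with 1 PV allele of Thra, the gene of thyroid hormone receptor TRα1 (Thra1PV/+, labelled PV/N) and from wild-type mice (WT, labelled N/N). The PV knock-in carries a frameshift at the carboxyl end of the receptor, which yields a dominant-negative protein, TRα1PV, in every tissue that uses the Thra gene. Regions of formalin-fixed sections were drawn by a pathologist on morphology and on staining for cytokeratin and smooth muscle actin, and the probes bound in each region were counted. The 95 regions of the first plate came from 6 mutant and 8 WT mice, with 60 regions of epithelium (31 mutant, 29 WT) and 35 of stroma (21 mutant, 14 WT). The mutant mice PV1 to PV6 were aged 4.2, 2.4, 5.9, 4.0, 2.4 and 6.3 months. The WT mice WT1 to WT8 were aged 6.3, 7.4, 9.0, 4.0, 6.3, 5.4, 4.5 and 5.0 months, so no WT mouse was as young as PV2 and PV5, and youth and genotype cannot be told apart in those animals. WT6 had no stroma region on this plate.

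Counts were summed per mouse and compartment, with the mouse as the replicate. Depth per region ran from 61691 to 3130397 counts (median 653387), and PV2 had only 1 region per compartment, with 61691 counts in the epithelium and 85336 in the stroma. When 12 columnar epithelium markers were set against 10 fibroblast markers, all 95 first-plate regions matched their label. The cut lay midway between the lowest columnar-minus-fibroblast score of labelled epithelium (0.28) and the highest of labelled stroma (-2.26) in these same regions. The match therefore says only that the labelled groups did not overlap in this score. Cytokeratin staining had guided the choice of regions, so this check was not independent of that choice. On the second plate only 56 of 94 regions matched their label by the same cut, and results here rest on the first plate. No target had a count under 1 in any region, so a sum of 1 in PV2 may stand for none.

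Thyroid hormone receptors are nuclear receptors that sit on DNA, usually as heterodimers with a retinoid X receptor. Without hormone they hold a corepressor complex built on NCOR1, in which HDAC3 removes acetyl groups from histones. When triiodothyronine binds, the corepressors leave and coactivators such as NCOA1 and the Mediator subunit MED1 are recruited. TRα1PV does not bind the hormone, so it stays with corepressors and blocks the remaining normal receptor. In the uterus, signals from the stroma help to direct the growth of the epithelium and its glands.

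The Thra gene lies at chr11:98740638-98769006 on the plus strand of GRCm38, and its last 1075 bases overlap Nr1d1, a clock gene transcribed from the opposite strand. Thrb lies at chr14:17660261-18038090, Rxra at chr2:27676440-27762957, Rxrb at chr17:34031812-34038399 and Rxrg at chr1:167598384-167639623, all on the plus strand. Ncor1 (chr11:62316426-62458541), Ncoa1 (chr12:4247362-4477182) and Med1 (chr11:98152154-98193293) lie on the minus strand, and Ncor1 shares 12026 bases with Ttc19 on the other strand. Each target was read by 1 probe whose position was not used here, so the Thra counts do not separate the mutant from the normal allele or the TRα1 from the TRα2 transcript, and they do not check the genotype labels. For the same reason levels are compared between mice and compartments for 1 gene at a time, never between genes.

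The receptors bind repeats of the core motif AGGTCA, so the promoters of the genes themselves were searched for it on both strands. RefSeq promoter windows (GRCm38.p6, 250 bases before to 50 after a start) were given for 7 of the 9 genes, 12 windows in all. Thra and Hdac3 had no window, so their promoters were not searched. The motif stood in 3 of them, in Rxra, Rxrg and Thrb, against 16.3% of all 32851 windows. A direct repeat spaced by 4 bases, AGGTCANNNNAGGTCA, the classical thyroid response element, was in no window of these genes and in 0.0152% of all windows. The 4 matches are shown with the motif in capitals (TGACCT is the motif on the opposite strand), as the only exact matches in these windows. Variants of the motif were not searched for. A match is a description and not a site of binding.
Rxra, chr2:27709193-27709222, plus strand: tagaaatgggtgTGACCTgagtaatggtca
Rxra, chr2:27709232-27709261, plus strand: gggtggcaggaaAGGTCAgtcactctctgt
Rxrg, chr1:167618165-167618194, plus strand: atcggggttgaaAGGTCAgctgaaagcttc
Thrb, chr14:17660764-17660793, plus strand: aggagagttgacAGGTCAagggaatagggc

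The other genes were further above the negative probes, which match no mouse sequence and give the background of the assay than Thrb and Rxrg, which were close to it. The median region held 1.87 times the negative-probe count for Thrb and 2.43 times for Rxrg, and these were under 2 in 54 and 31 of the 95 regions. For the others the medians were 11.5 for Thra, 8.51 for Rxra, 10.8 for Rxrb, 25.7 for Ncor1, 17.6 for Hdac3, 6.19 for Ncoa1 and 8.48 for Med1. The negative probes themselves were not equal between compartments, with per-mouse medians of 4.06 CPM (counts scaled to library size, over the plain total for the negative probes and over the TMM-scaled total for genes) in mutant and 4.95 in WT epithelium against 7.06 in mutant and 7.19 in WT stroma.

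**Figure D1:**
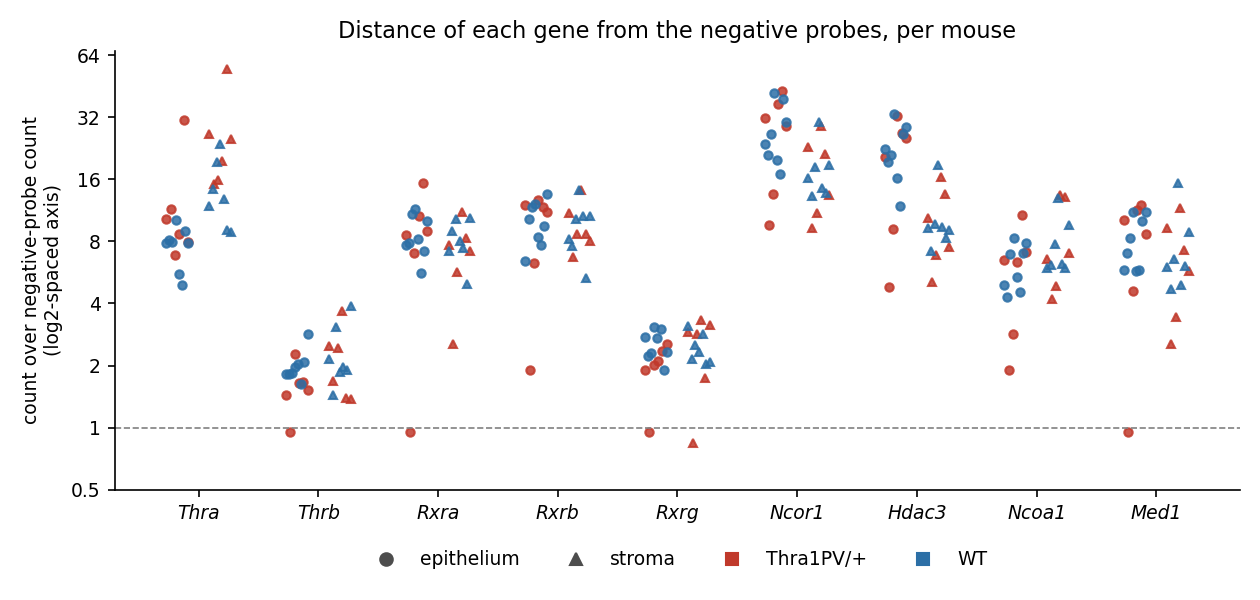
Count of each gene divided by the negative-probe count of the same mouse and compartment (log2-spaced axis), with circles for epithelium, triangles for stroma, red for Thra1PV/+ and blue for WT. Thrb and Rxrg lie between 0.844 and 3.9 in every mouse, and Thra is higher in stroma than in epithelium.

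The clearest differences were between compartments. Of the 9 genes, 4 were higher in stroma (Thra, Thrb, Rxrg and Ncoa1) and 2 in epithelium (Hdac3 and Ncor1), by the quasi-likelihood test of edgeR with the mouse as a block and an adjusted p under 0.05. That is 6 of 9 against 63% of all 14881 genes, of which 34.6% were higher in stroma and 28.4% in epithelium, so the share of genes called was near the background. In 4 of them, Thra, Ncoa1, Hdac3 and Ncor1, all 13 mice with both compartments moved the same way, as did 18.8% of all genes. None of the 9 had ranges that did not overlap between compartments, which 4.97% of all genes had. In regions of many cells, fewer cells of a type and less RNA per cell cannot be told apart.

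**Figure D2:**
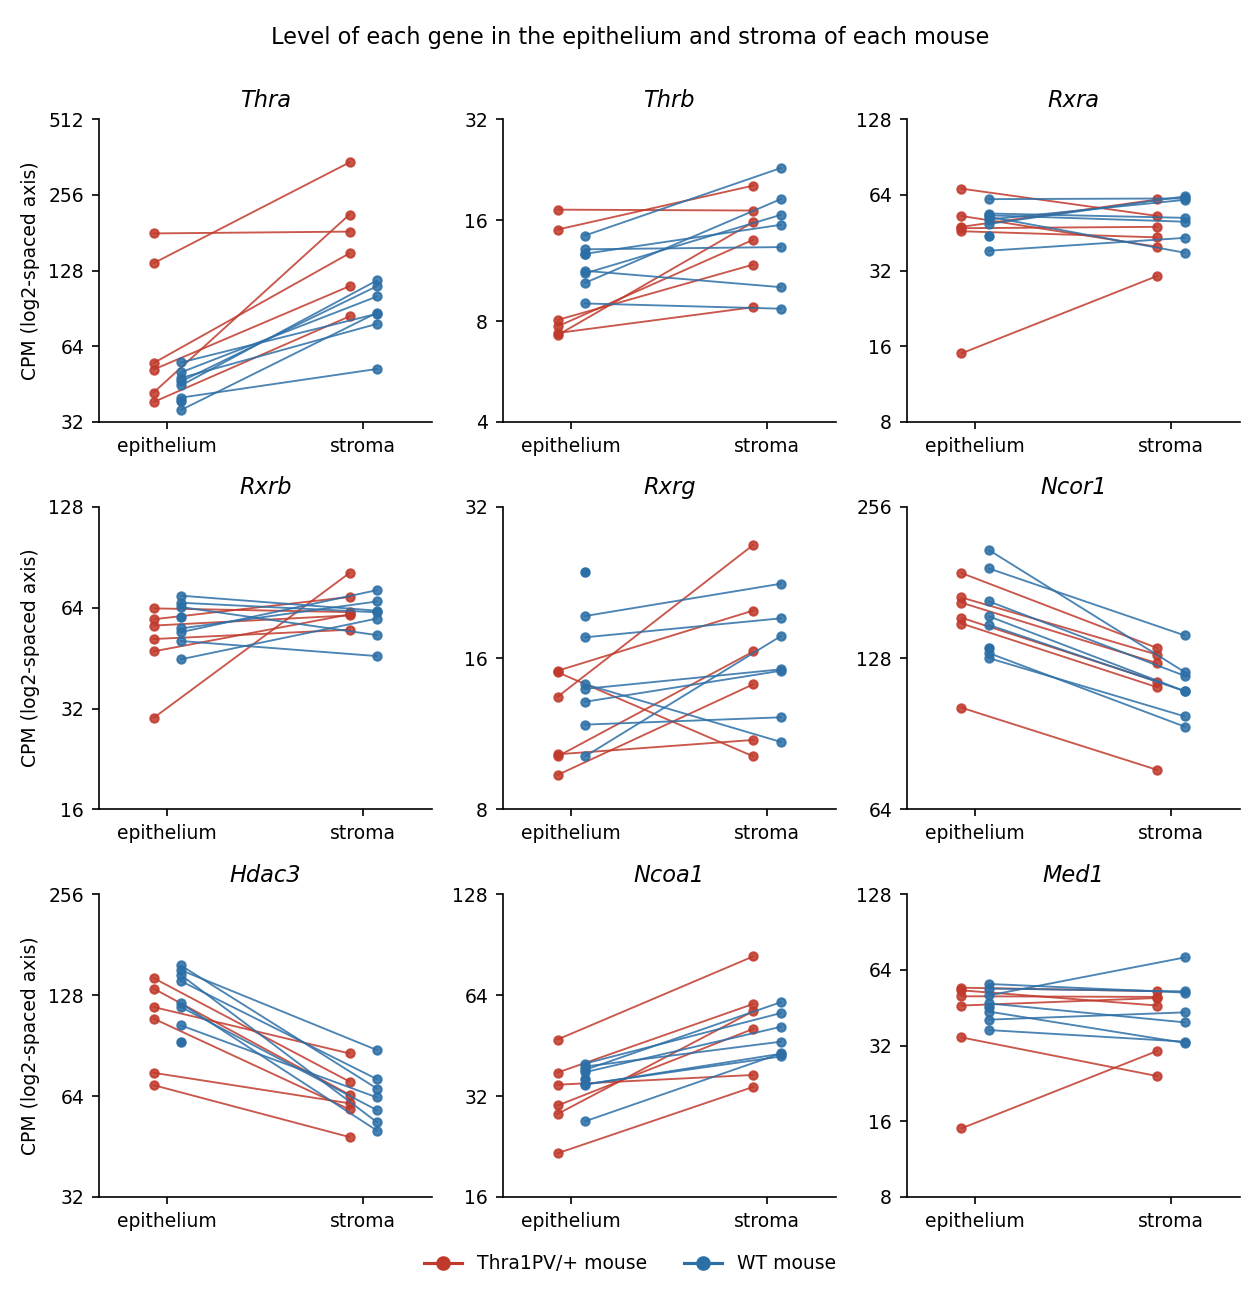
CPM of each gene in the epithelium and stroma of each mouse (log2-spaced axes, a different range per gene); a line joins the compartments of 1 mouse, red for Thra1PV/+ and blue for WT, and WT6 has no stroma. Lines of Thra and Ncoa1 rise towards stroma and those of Hdac3 and Ncor1 fall in all 13 mice.

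Thra, the receptor gene that carries the mutation, showed the largest compartment difference of the 9. Its level ran from 35.7 to 180 CPM in the epithelium (median 47.2, 14 mice) and from 52 to 345 CPM in the stroma (median 111, 13 mice). The stroma exceeded the epithelium by 1.29 to 2.59 times within the 7 WT mice (median 1.99) and by 1.01 to 5.04 times within the 6 mutant mice (median 2.33). The lowest ratio was that of PV2, where 12 counts in epithelium and 18 in stroma gave 180 and 183 CPM. Thra was 2.23-fold higher in stroma in the fit (log2 difference, epithelium minus stroma, -1.15 ± 0.14 SE, edgeR adjusted p = 5.64e-07). The size fell to -0.44 when both plates were summed and stood at 0.23 on the second plate alone, whose labels disagreed with the markers.

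Nr1d1, the gene on the other strand of Thra's last bases, was looked at after the values of Thra were seen. It was also higher in stroma in all 13 mice, 2.25-fold in the fit (log2 difference -1.17 ± 0.14 SE, edgeR adjusted p = 1.05e-06). Whether the shared bases play a part in either value was not tested.

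Thrb encodes the second receptor, which dominates in liver and pituitary. Its level was 7.26 to 17.2 CPM in epithelium (median 11.2) and 8.71 to 22.9 in stroma (median 15.5), higher in stroma in 10 of 13 mice. The fitted difference was 1.44-fold (log2 -0.53 ± 0.12 SE, edgeR adjusted p = 0.000924). The values rest on few counts, 1 to 81 per mouse in epithelium and 2 to 68 in stroma. With the negative-probe level subtracted, and regions under that level set to 0, the log2 difference was -0.75 (edgeR adjusted p = 0.0182). The negative probes were themselves higher in stroma. As a ratio to them, the per-mouse medians of Thrb lay close together, at 1.82 in epithelium and 1.96 in stroma.

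Among the partners, Rxra and Rxrb, which are used in most tissues, did not pass the test between compartments, and Rxrg, best known from muscle and brain, did. Rxra ran from 15 to 67.8 CPM in epithelium (median 50.1) and from 30.5 to 63.2 in stroma (median 50.1), higher in epithelium in 6 and in stroma in 7 of 13 mice, with a log2 difference of 0.00 ± 0.09 SE (edgeR adjusted p = 0.979). The lowest Rxra value was again PV2, on 1 count. Rxrb had 30 to 69.5 CPM in epithelium (median 56) and 45.9 to 81.2 in stroma (median 62). Its log2 difference was -0.12 ± 0.09 SE (edgeR adjusted p = 0.234), and it passed the threshold under upper-quartile scaling at -0.26 and with limma on Q3 values at -0.32. Those settings moved the median of all genes from -0.05 to -0.18 and -0.14. Rxrg had 9.37 to 23.7 CPM in epithelium (median 13.6) and 10.2 to 26.9 in stroma (median 15.2) and was higher in stroma in 11 of 13 mice. Its fitted difference was 1.30-fold (log2 -0.38 ± 0.12 SE, edgeR adjusted p = 0.00829). With the negative-probe level subtracted it was -0.51 (edgeR adjusted p = 0.0495). As a ratio to the negative probes, the per-mouse medians of Rxrg were 2.31 in epithelium and 2.51 in stroma. The call was lost with both plates summed (log2 -0.05, adjusted p = 0.664).

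The corepressor pair went the other way. Hdac3, the deacetylase of the NCOR complex, had 69 to 157 CPM in epithelium (median 119) and 48.3 to 87.8 in stroma (median 63.4). The epithelium exceeded the stroma by 1.64 to 2.72 times in WT mice and by 1.23 to 2.06 times in mutant mice. In the fit Hdac3 was 1.91-fold higher in epithelium (log2 0.93 ± 0.09 SE, edgeR adjusted p = 6.53e-08). Ncor1, the scaffold of that complex, had 102 to 210 CPM in epithelium (median 155) and 76.7 to 142 in stroma (median 115). It differed by the most even ratio of the 9 genes, 1.30 to 1.75 times higher in epithelium in each of the 13 mice. The fit gave 1.38-fold (log2 0.46 ± 0.07 SE, edgeR adjusted p = 1.63e-05).

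The coactivators split. Ncoa1, a p160 coactivator with acetyltransferase partners, had 21.6 to 47.2 CPM in epithelium (median 35.3) and 34.1 to 83.6 in stroma (median 50.8). Stroma exceeded epithelium by 1.07 to 2.00 times in the mice, and the fit gave 1.44-fold (log2 -0.52 ± 0.09 SE, edgeR adjusted p = 9.25e-05). Med1, the Mediator subunit that nuclear receptors contact, had 15 to 56.3 CPM in epithelium (median 46.7) and 24.2 to 71.8 in stroma (median 46.2). It was higher in epithelium in 9 of 13 mice, with a log2 difference of 0.04 ± 0.09 SE (edgeR adjusted p = 0.713). Med1 and Rxra took the opposite sign under upper-quartile scaling (log2 -0.10 and -0.13) without passing the threshold.

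**Figure D3:**
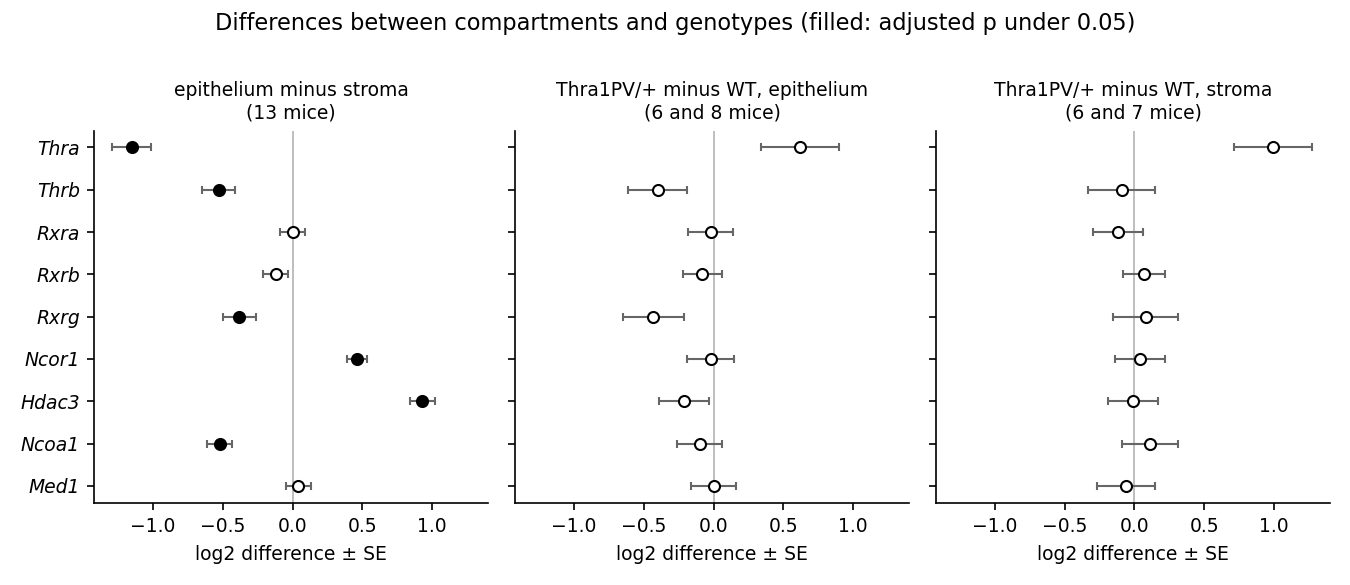
Log2 difference ± SE from edgeR for each gene between compartments (left) and between genotypes in epithelium (middle) and stroma (right); filled points passed an adjusted p of 0.05. In all, 6 genes pass between compartments, from Thra at -1.15 to Hdac3 at 0.93, and none passes between genotypes.

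The comparison of genotypes asked whether the mutation changes the expression of the receptor and of the proteins it works with. None of the 9 genes passed in epithelium or in stroma, where 0% of all genes passed in edgeR with per-mouse sums in either compartment. At an unadjusted p under 0.05 Thra was the only one of the 9 in each compartment, against 8.22% of all genes in epithelium and 3.52% in stroma. With DESeq2 none of the 9 passed either, while 28 of all genes passed in epithelium and 2 in stroma.

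In the epithelium, Thra stood at 180 CPM in PV2, at 137 in PV5, and between 38.4 and 54.9 in the other 4 mutant mice. The 8 WT mice had 35.7 to 55.2 CPM (median 45.6). So the mutant mice aged 2.4 months exceeded every other mouse, and the 4 older mutant mice lay within the WT range. The fitted log2 difference was 0.62 ± 0.28 SE (edgeR unadjusted p = 0.0419, adjusted p = 0.593), and the exact permutation test over 3003 divisions of the mice gave a two-sided p of 0.113. Without the mice aged 2.4 months the log2 difference was 0.06, and without PV5 alone it was 0.28. PV2's value rests on 12 counts, with a counting interval of 93.1 to 315 CPM, and its negative-probe level of 17 CPM was the highest of the epithelium profiles, so its ratio to the negative probes was 11.5. PV5's ratio was 31.1 on 93 counts. Both young mutant mice were highest of all 14 for 4.91% of all genes in the epithelium.

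In the stroma, Thra had 150, 183, 111, 84.2, 345 and 214 CPM in PV1 to PV6, against 52 to 117 CPM in the 7 WT mice (median 87). Of the 6 mutant mice, 4 exceeded the highest WT mouse, and PV3 and PV4 lay inside the WT range. The fitted log2 difference was 0.99 ± 0.28 SE, 1.98-fold higher in the mutant stroma (edgeR unadjusted p = 0.00258, adjusted p = 0.959). The exact permutation test over 1716 divisions gave an unadjusted two-sided p of 0.0186, and without the mice aged 2.4 months the difference in mean log2 CPM was 0.58 (exact permutation p = 0.097 over 330 divisions). The fit fell to 0.50 with both plates summed, and it was -0.11 on the second plate alone.

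**Figure D4:**
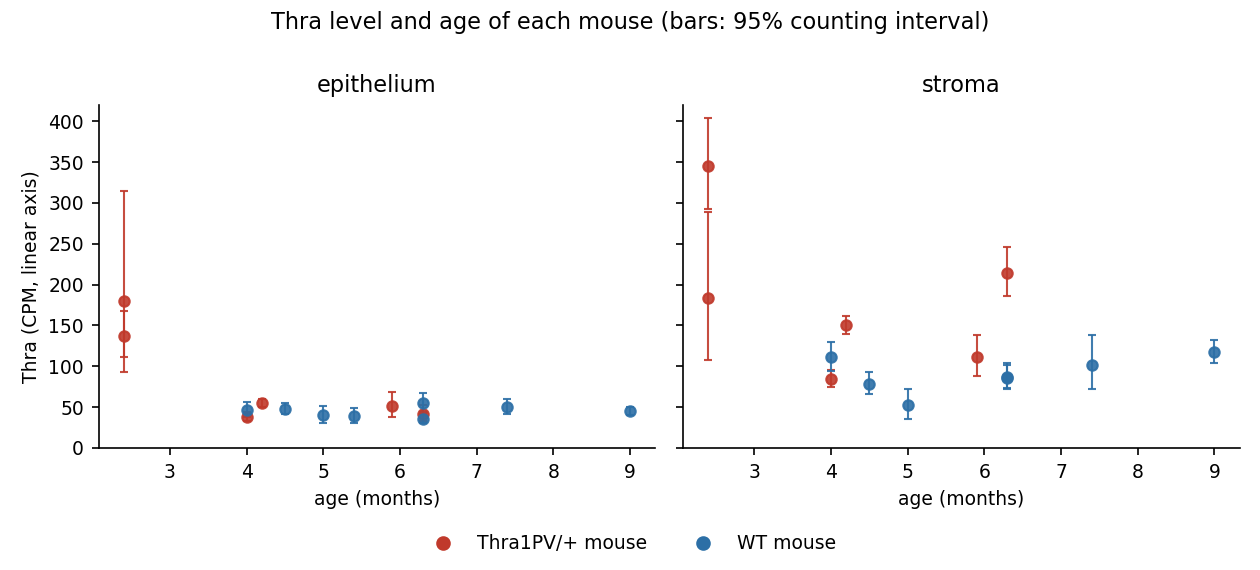
Thra CPM (linear axis) against the age of each mouse in months, in epithelium (left) and stroma (right), red for Thra1PV/+ and blue for WT, with bars for the 95% counting interval. The mutant mice aged 2.4 months have 180 and 137 CPM in epithelium, where all others lie at or under 55.2, and no WT mouse is that young.

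Cell type markers differed between the same profiles. Summed over the 7 of 8 smooth muscle markers kept, the stroma had 508 to 1792 CPM in mutant and 319 to 1398 in WT mice. The 10 fibroblast markers had 3402 to 18235 and 6187 to 12814 CPM, the 8 endothelial markers 398 to 818 and 355 to 459, and 6 of 8 B and plasma cell markers 382 to 13797 and 95.2 to 2903. PV5, with the most stromal Thra, was highest of the 13 stroma profiles in smooth muscle and endothelial markers, while PV2 was lowest in fibroblast markers. The 12 columnar markers of the epithelium had 2418 to 8731 CPM in mutant and 3152 to 7743 in WT mice. PV2, with the most epithelial Thra, was lowest of the 14 epithelium profiles in columnar (2418 CPM), smooth muscle (150 CPM) and fibroblast markers and highest in endothelial (195) and T cell (120) markers. In that profile 1 count equals 15 CPM, as for Rxra, and no count stood under 1. The endothelial and T cell sums of PV2 therefore rest on few counts, and how far this floor of 1 raises them was not tested. Only 2 of 8 squamous markers were kept, with 17.7 to 222 and 16.8 to 30.3 CPM in mutant and WT epithelium. T cell markers (5 of 8 kept) had 44 to 131 and 68.9 to 124 CPM in mutant and WT stroma, and the 10 macrophage markers 274 to 1512 and 553 to 3119. The part of these cells in the Thra values was not tested.

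For Thrb and Rxrg the fitted difference in epithelium was below 0 and did not pass the test. Thrb was 7.26 to 17.2 CPM in the mutant mice and 9.03 to 14.4 in the WT mice. Of the mutant mice, 4 lay below all WT mice and the other two above them, PV2 on 1 count and PV3 on 16. The log2 difference was -0.40 ± 0.21 SE (edgeR adjusted p = 0.631, exact permutation p = 0.244). Rxrg was 9.37 to 15.1 CPM in mutant and 10.2 to 23.7 in WT epithelium, with a log2 difference of -0.43 ± 0.22 SE (edgeR adjusted p = 0.619, exact permutation p = 0.129). The negative probes were also lower in the median mutant epithelium. With their level subtracted the log2 differences were -0.66 for Thrb and -0.69 for Rxrg (edgeR adjusted p = 0.82 and 0.747). In the stroma the log2 differences of Thrb and Rxrg were -0.09 ± 0.24 and 0.08 ± 0.23 SE.

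For the remaining 6 genes the genotype differences were small beside the spread between mice. In epithelium their log2 differences ran from -0.21 ± 0.18 SE (Hdac3) to -0.00 ± 0.16 (Med1), and in stroma from -0.12 ± 0.18 (Rxra) to 0.11 ± 0.20 (Ncoa1). Hdac3 had 69 to 144 CPM in mutant and 93.1 to 157 in WT epithelium (exact permutation p = 0.161), and its ranges in stroma were 48.3 to 85.8 and 50.5 to 87.8. Ncor1 had 102 to 189 CPM in mutant and 128 to 210 in WT epithelium (exact permutation p = 0.812). The lowest Ncor1 level in both compartments was that of PV3, with 102 and 76.7 CPM. Rxra, Rxrb and Med1 were lowest in PV2's epithelium, on 1, 2 and 1 counts. Over regions taken as independent, Thra in stroma and Thrb and Rxrg in epithelium passed an adjusted p of 0.05, but regions share mice, so those p-values are too small. In that fit 3175 of all 14881 genes passed in epithelium. In stroma 276 of all 14881 genes passed as higher in the mutant, as Thra did, and 116 as lower.

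The genotype effect did not differ between compartments by the test for any of the 9 genes, and 0% of all genes passed it (1066 genes at an unadjusted p under 0.05 in edgeR, 1 gene adjusted in DESeq2). None of the 9 genes was among those under 0.05 unadjusted. For Thra the interaction was -0.39 ± 0.26 SE on the log2 scale (edgeR adjusted p = 0.804). The study also set younger against older mice, so the genotype effect from 5 months was compared with that under 5 months. None of the 9 passed in epithelium or stroma, and 0% of all genes passed in either (537 and 822 genes at an unadjusted p under 0.05 in edgeR, 0 and 1 adjusted in DESeq2). For Thra the effect from 5 months minus that before was -0.77 ± 0.59 SE in epithelium (edgeR adjusted p = 1) and -0.13 ± 0.63 in stroma (adjusted p = 1). With only 2 WT mice under 5 months and 2 mutant mice from 5 months, these values carry large errors.

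Between regions of 1 mouse, Ncor1 varied least and Thrb most in the epithelium. Over mice with at least 3 regions, the median coefficient of variation of the epithelium CPM was 7.00% for Ncor1, 16.1% for Rxrb, 18.7% for Med1, 19.3% for Ncoa1, 19.4% for Hdac3 and 20.4% for Rxra. It was 27.7% for Thra, 28.6% for Rxrg and 34.1% for Thrb, where counts were also fewest for the last 2. The mean of each genotype was also taken off the log2 values of the epithelium regions. Of the variance that remained, 41.1% lay between mice for Thra, against 2.96% for Rxrb and 10.2% for Thrb. In the stroma that share was 66.8% for Med1, 47.2% for Thra, 44.9% for Rxrb and 0% for Thrb, and between 5.97% and 38.5% for the others.

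Across the 27 profiles, after the mean of each compartment was taken off, the pairs with the highest r were all of co-regulators. Pearson's r was 0.73 for Ncor1 with Hdac3, 0.66 for Hdac3 with Med1 and 0.65 for Ncor1 with Ncoa1, while over all 36 pairs it ran from -0.51 (Thrb with Hdac3) to 0.73 with a median of -0.02. The profiles share depth and background, and r with the negative probes was 0.58 for Thrb and -0.80 for Med1. The 5 genes most like Thra were Zfp950 (r = 0.86), Ankrd12 (0.84), Nynrin (0.81), Trerf1 (0.79) and Mrps31 (0.79). Without the mice aged 2.4 months, r over 23 profiles was 0.57, 0.73, 0.39, 0.36 and 0.43. Nr1d1 was 58th in the order over all 27 profiles with r = 0.69, and its r over the 23 profiles was 0.28. Among the 5 most like Thrb were Pcdhb14 (r = 0.84), Cela1 (0.78), Olfr765 (0.78) and Tcl1b1 (0.77).

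Other genes of the pathway were taken as 4 lists, the corepressor complex, coactivators, Mediator subunits and other receptors that pair with RXR. Between compartments, 23 of their 46 tested genes passed, against 63% of all genes, and none passed between genotypes in either compartment. For each list the share of all genes to read it against is 28.4% higher in epithelium and 34.6% higher in stroma. In the corepressor list 5 of 10 genes were higher in epithelium and 1 in stroma, with a median log2 difference of 0.25 against -0.05 over all genes. Tbl1x, Tbl1xr1 and Gps2, which belong to the NCOR1 and HDAC3 complex itself, did not pass (log2 -0.08, 0.18 and -0.00, edgeR adjusted p = 0.568, 0.0863 and 0.977). Hdac2, a class I deacetylase, had 60.1 to 333 CPM in epithelium (median 197) and 97.3 to 205 in stroma (median 147), 1.42-fold higher in epithelium in the fit. Rcor1 and Kdm1a, the scaffold and the histone demethylase of the CoREST complex, were 1.28-fold and 1.30-fold higher in epithelium, each in 12 of 13 mice.

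Of the 13 coactivators, 3 were higher in epithelium and 2 in stroma (63% of all genes passed in either direction), with a median log2 difference of 0.05. Nrip1, a ligand-dependent repressor of nuclear receptors in spite of its place in this list, was 1.54-fold higher in epithelium, in all 13 mice. Prmt1, an arginine methyltransferase, and Ppargc1a were 1.43-fold and 1.36-fold higher there. The acetyltransferase Kat2b and the arginine methyltransferase Carm1 were 1.31-fold and 1.23-fold higher in stroma. Of the 14 Mediator subunits, 7 were higher in epithelium and 1 in stroma, against 28.4% and 34.6% of all genes, with a median of 0.18. Med14, the backbone of the complex, had 69 to 165 CPM in epithelium and 20.3 to 63.1 in stroma without overlap, 1.98-fold higher in epithelium (log2 0.99 ± 0.12 SE, edgeR adjusted p = 8.55e-07). Cdk8 and Med7 were 1.32-fold and 1.34-fold higher in epithelium, and Ccnc, the cyclin that partners Cdk8, was 1.27-fold higher in stroma.

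Of the 9 tested partner receptors (Nr1h4 was not in the filtered table), 2 were higher in epithelium and 2 in stroma, again against 28.4% and 34.6% of all genes, with a median of -0.16. The liver X receptor Nr1h3 had 9.46 to 19.3 CPM in epithelium and 22.7 to 39.8 in stroma without overlap, 2.31-fold higher in stroma in the fit (log2 -1.21 ± 0.10 SE, edgeR adjusted p = 3.84e-09). The retinoic acid receptor Rarb was 1.60-fold higher in stroma, in all 13 mice. Its relative Rara and the other liver X receptor, Nr1h2, were 1.31-fold and 1.18-fold higher in epithelium, each in 11 of 13 mice.

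**Figure D5:**
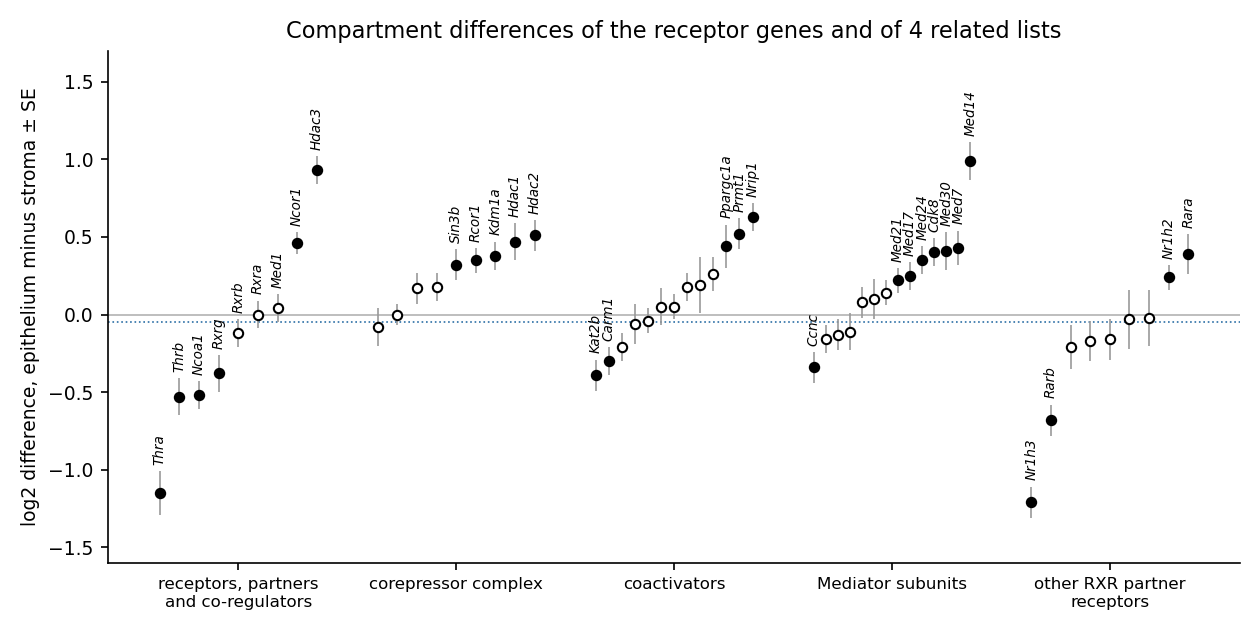
Log2 difference, epithelium minus stroma, ± SE from edgeR for the 9 genes and for genes of 4 related lists; filled points passed an adjusted p of 0.05 and the dotted line marks the median of all genes at -0.05. In the corepressor list 5 of 10 genes and among the Mediator subunits 7 of 14 were higher in epithelium, against 28.4% of all genes. In each of these lists 1 gene was higher in stroma, against 34.6% of all genes. Not every counted gene is plotted.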

How the data were processed

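GeoMx whole-transcriptome probe counts were taken from mouse uterus regions on 2 plates. Expected counts stand in the authors' deposited raw table, all whole but 558 and none under 1, and the negative-probe row, 0.000527% of its total, was kept out of the tests. Signal values stand in the authors' deposited Q3 table, where 1 upper-quartile factor per region divides every count. The submitters' processing notes name mm10, R 4.1.2 and Space Ranger. Probe positions were not used here. Ages, labelled without a unit, were taken to be months.

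First-plate counts were summed per mouse and compartment, rounded, and tested with edgeR 4.0.16 (quasi-likelihood, TMM, R 4.3.3) over 14881 genes, two-sided, with Benjamini-Hochberg adjustment and a threshold of 0.05. The SE is the log2 difference over the square root of F. CPM intervals are exact Poisson at 95% and cover counting error only. Log2 CPM used a prior count of 2. The mouse was a block between compartments: deviations of a mouse's compartments from their group means correlated at 0.16 to 0.526 in all 13 mice. Fits were tested on data simulated with the fitted spread, without an effect shared by the compartments of 1 mouse. Such data do not check the mouse block. Alternatives used DESeq2 1.42.0 and limma 3.58.1 (on log2 of Q3 values with a pseudocount of 1). Positions are those of GENCODE vM21. All 9 genes are named, with the 3 lowest-p called genes per direction in each related list and the 5 genes most like Thra and Thrb. Tbl1x, Tbl1xr1 and Gps2 are named as members of the NCOR1 complex. The genes, lists and tests were chosen with earlier results of these data known. Labels and design text differ on the number of mice (14 against 13), and the 14 of the labels were used. Some genes are counted in these lists and are not reported here by name or in the plots.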

Additional observations from a re-analysis of the deposited data

Results flagged for a closer look

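Within groups of 6 to 8 mice, 5 of 36 groups held a mouse whose distance from the rest was large beside the range of the group. Chance gives about 1 in 20 for a single group. These groups are genes read from the same mice, so the count of 5 cannot be set against that share. Rxra and Med1 were both 15 CPM in the epithelium of PV2, on 1 count each, against next values of 45.9 and 34.5 CPM. Ncor1 was lowest in PV3 in both compartments, with 102 CPM in the mutant epithelium (next 150) and 76.7 CPM in the mutant stroma (next 112). Ncoa1 was 26.9 CPM in the epithelium of WT2, below the next WT value of 34.6.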

How the results depend on the processing

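Between compartments, 6 of the 9 genes passed in each fit that left out 1 mouse (6 to 6), and 6 also without the replicate block, while 5 passed with both plates summed and 7 each with limma on Q3 values and upper-quartile scaling. Of the related genes, 23 passed with all mice, 21 to 24 with 1 mouse left out, 20 without the replicate block, 15 with limma on Q3 values and 9 with both plates summed. Of all 14881 genes, 9380 passed with all mice, 7952 without the replicate block and 5631 with both plates summed. With limma on Q3 values 8209 of all genes passed, and with upper-quartile scaling 9684. Only 56 of the 94 regions of the second plate matched their compartment label by the markers. On that plate alone 0 of either set passed, and 0 of all 14881 genes did. There the log2 differences between compartments took the other sign for Thra (0.23), Rxrg (0.24), Thrb (0.09), Rarb (0.07), Kat2b (0.03), Nr1h3 (0.02), Cdk8 (-0.00), Nr1h2 (-0.02), Hdac3, Med14 and Rcor1 (each -0.03), Med1 (-0.08), Hdac2 (-0.11), Kdm1a (-0.15) and Prmt1 (-0.16). So did the genotype differences of Thra (-0.11), Ncoa1 (-0.17) and Hdac3 (0.29) in stroma and of Rxrg in epithelium (0.29), and for Thra the interaction (0.47) and the age contrast in epithelium (0.65). With both plates summed, signs turned for the Thra interaction (0.13), the Thra age contrast in epithelium (0.26) and Hdac3 in stroma (0.23). Between compartments, Med1 and Rxra turned to -0.13 and -0.15 with limma on Q3 values and to -0.10 and -0.13 with upper-quartile scaling. Ncoa1 in stroma turned to -0.10 in mice aged 4 to 6.3 months. Without the mice aged 2.4 months, a choice made after seeing the data, the Thra age contrast was 0.03 in epithelium and 0.53 in stroma. Over regions as independent, 2 of the 9 genes passed between genotypes in epithelium and 1 in stroma, as did 8 related genes in epithelium. In that fit 3175 of all 14881 genes passed in epithelium, so neither count in epithelium stood out from the background. In stroma 276 of all 14881 genes passed as higher in the mutant, as Thra did, and 116 as lower. Apart from that fit, 0 of the 9 genes passed between genotypes, also with 1 mouse left out (0 to 0). The causes were not tested. The low counts of PV2, Thrb and Rxrg limit what these comparisons can show.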
